A study of Mus musculus with 8 samples.

Results

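The genes described are 9 members of the pathway that loads peptides onto MHC class II in mouse pancreatic cancer cells, of 42687 genes in the table. They were chosen by name as parts of that pathway, with earlier results of these data known, and are Cd74, H2-Aa, H2-Ab1, H2-Eb1, H2-DMa, H2-DMb1, H2-DMb2, Ctss and Ifi30. All 9 were found in the table. The cells were 1 clone of low immunogenicity from a mouse tumour with the alleles KrasLSL-G12D/+, Trp53LSL-R172H/+, Pdx1-Cre and Rosa26YFP/YFP, so that Cre is driven by the promoter of a pancreatic gene, Pdx1, and all 4 groups share these alleles. The labels' genotype field reads WT for every library. The groups, each with 2 RNA-seq libraries, were PBS alone, ATEV at 15 µg/mL, NTEV at 30 µg/mL, and ATEV at 15 µg/mL that had first been treated with Baseline-ZERO DNase. EVs are extracellular vesicles, small membrane particles that cells shed. Per the labels, T cells that were not activated gave the NTEVs, and the A of ATEV is read here as activated. An amount of 5 µg/mL of DNA carried by the EVs is given beside the doses, and cells went through 8 rounds of exposure and reseeding.

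MHC class II molecules display peptides from endosomes to CD4+ T cells. An alpha and a beta chain are assembled on the invariant chain, which the gene Cd74 encodes. Endosomal proteases such as cathepsin S trim the invariant chain, and the H2-DM protein then exchanges the remaining fragment for other peptides. Professional antigen-presenting cells make these genes constantly, while many epithelial cells make them under interferon-gamma through the transactivator Ciita.

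Library totals ran from 34385326 to 52451398 counts. Summed levels of 8 ductal tumour markers, among them Krt19 and Epcam, lay between 8818 and 11778 CPM (counts-per-million, scaled by TMM for library composition), with none of them at 0. Among 15 T cell markers, Cd8a, Cd2, Il2ra and Ifng had 0 counts in every library, and the list's sum was 10.8 to 11.8 CPM with PBS, 8.49 to 11.0 with ATEV, 6.27 to 8.56 with NTEV and 8.61 to 11.4 with DNase-treated ATEV. Most of it came from Lck and Trac, and the other 13 had at most 19 counts in a library. Among 17 markers of antigen-presenting cells and other leukocytes, Ms4a1, Itgax, Adgre1, Xcr1 and Tyrobp had 0 counts in every library. That list summed to 3.25 to 3.89 CPM with PBS, 3.77 to 3.86 with ATEV, 3.19 to 4.36 with NTEV and 4.28 to 6.55 with DNase-treated ATEV. Most of it came from Cd68, and the other 16 had at most 19 counts in a library. Among 8 markers of fibroblasts and endothelium, Dcn and Lum were at 0, and the sum was 1.79 to 1.81 CPM with PBS, 1.01 to 2.94 with ATEV, 1.08 to 1.57 with NTEV and 0.750 to 1.42 with DNase-treated ATEV. The part of these other cell types in the results was not tested.

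With ATEV against PBS, 6 of the 9 members rose, by edgeR's quasi-likelihood test at an adjusted p under 0.05: Cd74, H2-Aa, H2-Ab1, H2-Eb1, H2-DMa and H2-DMb1. Of all 15197 genes tested, 3.52% were called higher in that comparison. The filter on low counts passed 7 members. Of those, Cd74, H2-Aa, H2-Ab1 and H2-Eb1 passed it only through the ATEV libraries, where their counts are high. The share called among tested members therefore supports nothing further. Ifi30, the seventh, was not called, and H2-DMb2 and Ctss were below the filter. Nothing in the labels tells if libraries of 1 group stem from different cultures, and the p-values then measure a spread between libraries that may be technical. In bulk RNA, a few cells with much of a transcript and many cells with a little cannot be told apart.

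**Figure D1:**
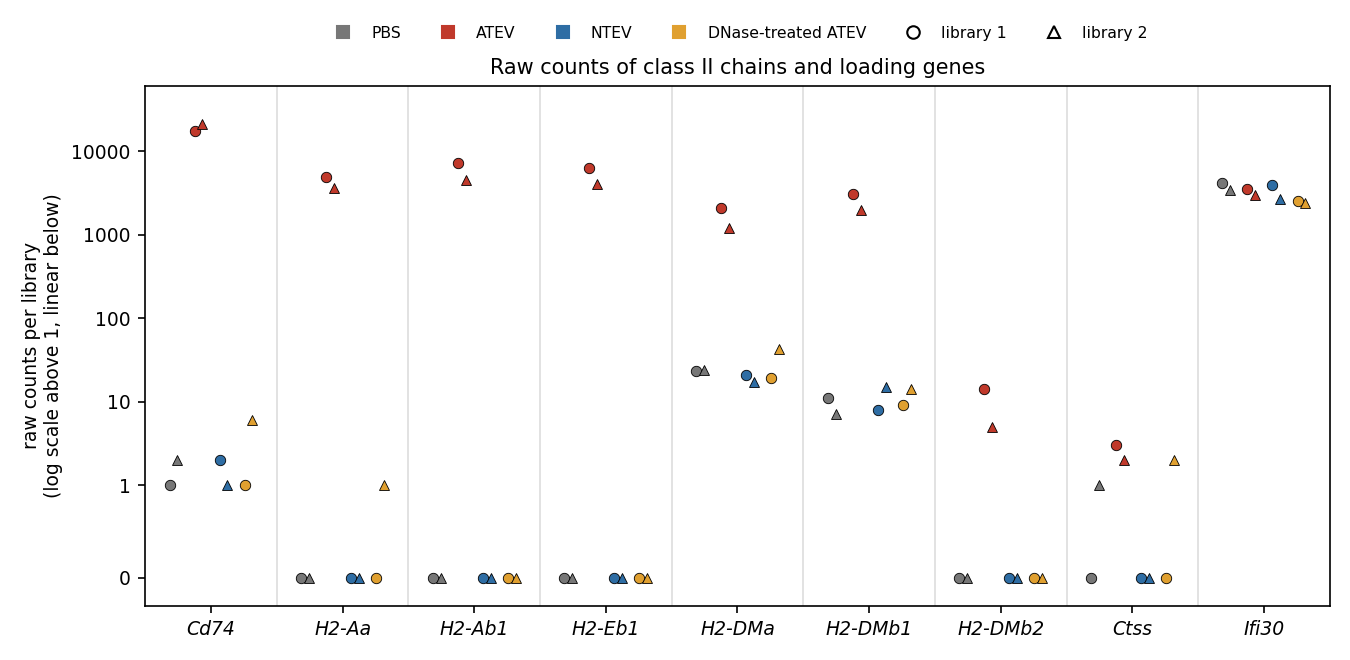
Counts of the 9 members in each of the 8 libraries, coloured by group, with 1 point per library and a vertical axis that is logarithmic above 1 count and linear below. The ATEV libraries stand apart for Cd74, with 17436 and 21149 counts against at most 6 elsewhere, and for the H2-A, H2-E and H2-DM chains, while Ifi30 lies between 2381 and 4158 counts in every library.

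Cd74, the invariant chain, had 1 and 2 counts with PBS, 17436 and 21149 with ATEV, 2 and 1 with NTEV, and 1 and 6 with DNase-treated ATEV. Both ATEV libraries were far above the other 6, and the groups other than ATEV overlapped. With ATEV its level was 442 ± 57.8 CPM (SD, n = 2), and the ratio to PBS was 12430, with a 95% exact counting interval of 4253 to 60276. Such intervals cover counting error, not the spread between cultures. The edgeR adjusted p for ATEV against PBS was 8.31e-05.

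H2-Aa, the alpha chain of the I-A molecule, had 4843 and 3571 counts with ATEV, 0 in all libraries with PBS and NTEV, and 0 and 1 with DNase-treated ATEV. H2-Ab1, the beta chain of I-A, had 7093 and 4475 counts with ATEV and 0 in the other 6 libraries. H2-Eb1, the beta chain of I-E, had 6230 and 4049 counts with ATEV and likewise 0 in the other 6. All 3 chain genes were thus at or within 1 count of 0 outside the ATEV group. Because PBS had no counts, each fold is a lower bound that puts 3 counts over the group in place of 0: H2-Aa was at least 2710-fold higher with ATEV, H2-Ab1 at least 3727-fold and H2-Eb1 at least 3311-fold. The edgeR adjusted p was 0.000917 for H2-Aa, 0.00252 for H2-Ab1 and 0.00247 for H2-Eb1. An antisense gene within the H2-Eb1 locus, Gm20513, whose exons do not overlap those of H2-Eb1, had 21 and 4 counts with ATEV and 0 elsewhere.

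H2-DMa and H2-DMb1 encode the alpha and beta chains of H2-DM, which catalyses peptide exchange, and unlike the chain genes they had counts in every library. H2-DMa had 23 and 24 counts with PBS, 2102 and 1206 with ATEV, 21 and 17 with NTEV, and 19 and 43 with DNase-treated ATEV. H2-DMb1 had 11 and 7 counts with PBS, 3099 and 1988 with ATEV, 8 and 15 with NTEV, and 9 and 14 with DNase-treated ATEV. For both genes the ATEV libraries lay above all others and the remaining groups overlapped or lay close together. H2-DMa went from 0.588 ± 0.200 CPM with PBS to 37.9 ± 14.7 with ATEV (SD, n = 2 each), a log2 fold change of 6.04 ± 0.51 (SE) with an edgeR adjusted p of 0.00183. H2-DMb1 went from 0.213 ± 0.00066 CPM to 58.3 ± 18.3, a log2 fold change of 8.08 ± 0.47 with an edgeR adjusted p of 0.000608. Exons of Brd2, which encodes a chromatin reader, overlap those of H2-DMa on the opposite strand. Brd2 had 13335 to 19433 counts over the 8 libraries, and was at 360 ± 107 CPM with PBS and 378 ± 83.6 with ATEV (SD, n = 2 each). Whether the authors' counting used strand is not stated, and the part of Brd2 reads in the H2-DMa counts was not tested.

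H2-DMb2 encodes a near-identical beta chain of H2-DM. It had 14 and 5 counts with ATEV and 0 in the other 6 libraries, at least 6.12-fold higher with ATEV than with PBS. It was below the filter on low counts, and when that filter was dropped its edgeR adjusted p was 0.0920. The longest transcripts of H2-DMb1 and H2-DMb2 are 94.6% identical over 1219 aligned bases, and 27.2% of the 50-base windows of H2-DMb1 and 30.9% of those of H2-DMb2 also occur in another gene's transcripts. How the authors' counting placed reads from those windows is not stated, so the values of both genes are uncertain to that extent. Of the other 7 members, 6 shared no such window with another gene, and for Ifi30 the share was 3.86%.

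Ctss and Ifi30 act at the processing end of the pathway. Ctss, cathepsin S, which cleaves the invariant chain in professional antigen-presenting cells, had 0 and 1 counts with PBS, 3 and 2 with ATEV, 0 and 0 with NTEV, and 0 and 2 with DNase-treated ATEV. Ctss was below the filter on low counts, and when that filter was dropped its edgeR adjusted p for ATEV against PBS was 0.750. The ATEV to PBS ratio of 4.83 has a 95% exact counting interval of 0.541 to 229. Ifi30, an interferon-inducible lysosomal thiol reductase that unfolds antigens by reducing disulfide bonds, had 4158 and 3417 counts with PBS, 3522 and 2948 with ATEV, 3886 and 2664 with NTEV, and 2553 and 2381 with DNase-treated ATEV. In CPM it was 92.3 ± 16.3 with PBS, 74.1 ± 9.69 with ATEV, 71.1 ± 6.83 with NTEV and 60.5 ± 1.78 with DNase-treated ATEV (SD, n = 2 each). Its PBS and ATEV libraries met at 80.8 and 81.0 CPM, and the log2 fold change of -0.32 ± 0.17 (SE) had an edgeR adjusted p of 0.329. An unnamed gene model overlaps exons of Ifi30 on the opposite strand, with 5 to 30 counts per library.

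Set per length, the level with ATEV was highest for Cd74. Dividing CPM by the kilobases of all exons of the gene merged, Cd74 stood at 263 ± 34.4 CPM per kb (SD, n = 2), Ifi30 at 75.6 ± 9.88, H2-Eb1 at 60.6 ± 18.5, H2-Ab1 at 51.6 ± 16.8, H2-DMb1 at 34.7 ± 10.9, H2-Aa at 25.4 ± 5.56 and H2-DMa at 11.0 ± 4.27. H2-DMb2 and Ctss were far below these. Cd74 was above every other member in both libraries. From Ifi30 down to H2-Aa, each step was smaller than the sum of the neighbours' SDs. Those SDs hold a shift shared by the neighbours, because the genes from Ifi30 to H2-Aa were all higher in ATEV library 1. Within libraries, the order from Cd74 to H2-DMa was the same in both. In libraries 1 and 2, Ifi30 was at 82.5 and 68.6 CPM per kb, and H2-Eb1 at 73.7 and 47.5. H2-Ab1 was at 63.5 and 39.8, H2-DMb1 at 42.4 and 26.99, and H2-Aa at 29.3 and 21.5. The order depended on the length used. With the longest transcript of each gene instead, a choice added after the data were seen, H2-Ab1 was at 109 ± 35.6 CPM per kb, H2-Aa at 85.5 ± 18.7, Ifi30 at 75.6 ± 9.88 and H2-Eb1 at 70.6 ± 21.5, behind Cd74 at 313 ± 41.0, and H2-DMb2 was at 0.147 and Ctss at 0.0423.

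**Figure D2:**
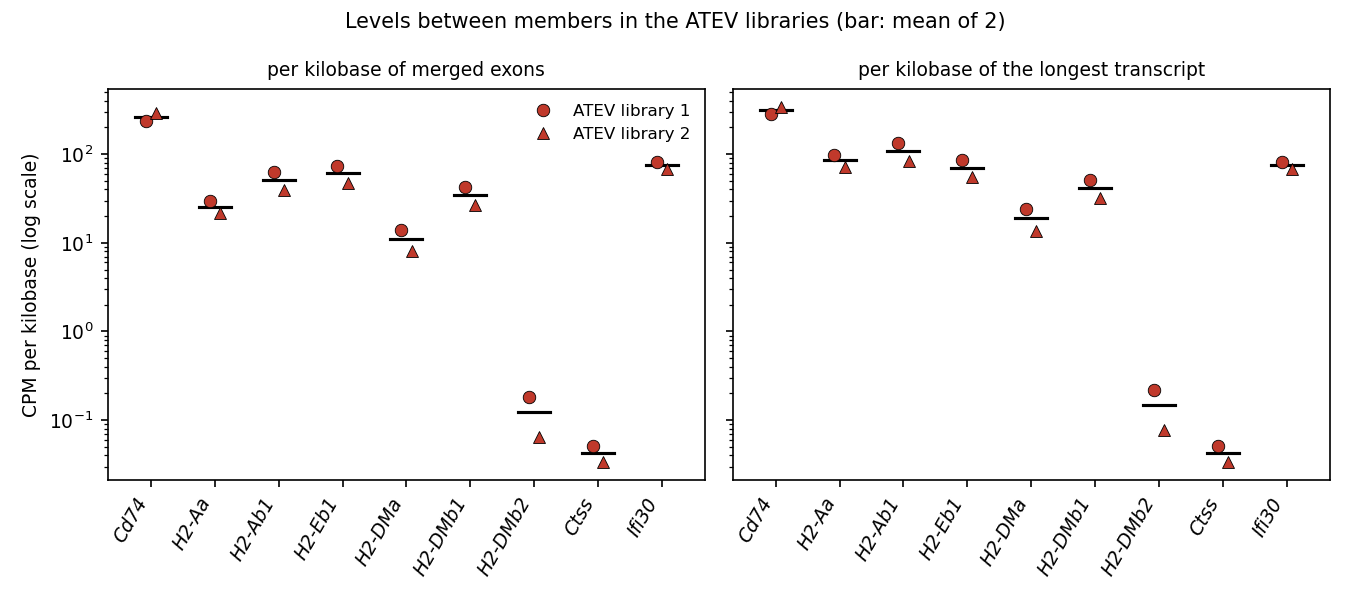
Level of each member in the 2 ATEV libraries in CPM per kilobase, on a log axis, with lengths from merged exons on the left and from the longest transcript on the right, 1 point per library and a bar at the mean. Cd74 is highest in both panels, at 263 and 313 CPM per kb, and H2-Aa changes its place between them, from 25.4 to 85.5.

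Partner chains kept similar proportions in the 2 ATEV libraries. Per kilobase of merged exons, the ratio of H2-Aa to H2-Ab1, the partner chains of I-A, was 0.462 in ATEV library 1 and 0.540 in library 2. By longest transcript the same ratio was 0.734 and 0.857. For the chains of H2-DM, H2-DMb1 over H2-DMa, it was 3.02 and 3.38 by merged exons and 2.11 and 2.35 by longest transcript. Cd74 moved apart from the chains between those libraries: by merged exons its ratio to H2-Aa was 8.14 in library 1 and 13.4 in library 2. By longest transcript that ratio was 2.88 and 4.74. The CPM of Cd74 was 1.20 times higher in library 2. The CPM of the other members was higher in library 1, by 1.37 times for H2-Aa, 1.60 for H2-Ab1, 1.55 for H2-Eb1, 1.76 for H2-DMa and 1.57 for H2-DMb1. H2-DMb1 was 230 and 413 times H2-DMb2 per kilobase.

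The gene starts of several members carry the letters of a known class II promoter layout, which is shown because these genes moved together. In that layout, an X box bound by the RFX complex lies upstream of a Y box, an inverted CCAAT letter run bound by NF-Y. RefSeq windows of 250 bases before to 50 after each gene start (GRCm38.p6) were searched on both strands for GNAAC followed by ATTGG with 25 to 45 bases between their starts. The pair was found in 1119 of 32851 windows of the same length, or 3.41%. GNAAC alone was in 84.8% of windows and ATTGG alone in 37.4%. Among the members, windows were given for H2-Aa, H2-Eb1, H2-DMa, H2-DMb1, H2-DMb2, Ctss and Ifi30, and those of H2-Aa, H2-Eb1 and H2-DMb1 held the pair on the gene's strand. These stretches lie at chr17:34287861-34287910 on the minus strand, chr17:34305770-34305818 on the plus strand and chr17:34153091-34153140 on the plus strand. The stretch of H2-DMb2 that aligns with that of H2-DMb1 lies at chr17:34145120-34145169 on the plus strand and has ATTGG but no GNAAC at the matching place. Each is written 5′ to 3′ along the gene's strand, with the 2 letter runs of the search in capitals.
H2-Aa: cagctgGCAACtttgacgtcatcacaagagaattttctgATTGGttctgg
H2-Eb1: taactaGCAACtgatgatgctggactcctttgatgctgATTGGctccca
H2-DMb1: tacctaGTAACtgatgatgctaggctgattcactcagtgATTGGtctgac
H2-DMb2: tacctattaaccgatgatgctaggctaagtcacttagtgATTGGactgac

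The starts of the runs lie 33 bases apart in H2-Aa and H2-DMb1 and 32 in H2-Eb1. Of the 50 bases shown for H2-DMb1 and H2-DMb2, 44 are identical. Counted from 1 at the 5′ end of the printed stretch, with the base of H2-DMb1 first, the 6 differences are G7T, T12C, G27A, T29G, C35T and T45A, and G7T falls in the GNAAC run at positions 7 to 11. H2-DMb1 reached 3099 and 1988 counts with ATEV and H2-DMb2 14 and 5, values that their shared transcript windows leave uncertain. Whether the base differences bear on these counts was not tested. The pair was not in the windows of H2-DMa, H2-DMb2, Ctss or Ifi30, which says only that these letters are not there within 250 bases before and 50 after the start. H2-DMa rose with ATEV without the pair in either of its 2 windows. A match is a description of letters, not a site of binding.

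Class II chain genes outside the members were near 0 in every library, and the windows of H2-Oa, H2-Ob and H2-Eb2 held the same pair. H2-Oa and H2-Ob encode H2-DO, an inhibitor of H2-DM, and H2-Eb2 is a second beta chain gene of the I-E type. H2-Oa had 0 and 2 counts with ATEV and 1 and 0 with PBS, H2-Ob had 0 in all 8 libraries, and H2-Eb2 had 2 and 2 with ATEV and 0 elsewhere. The pseudogene H2-Ea-ps was at 0 in every library. Their stretches, shown for comparison with those of the members that rose, lie at chr17:34092297-34092346, chr17:34238812-34238858 and chr17:34325537-34325585, all on the plus strand and in the same build.
H2-Oa: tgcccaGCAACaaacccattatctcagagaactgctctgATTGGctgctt
H2-Ob: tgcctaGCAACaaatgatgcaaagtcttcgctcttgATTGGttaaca
H2-Eb2: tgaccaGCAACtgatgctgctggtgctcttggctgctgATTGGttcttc

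How much DNA the treatment removed from the vesicles was not tested. The next comparison set DNase-treated against untreated ATEV. In it 6 of the 9 members fell, by edgeR at an adjusted p under 0.05, where 0.579% of the 15197 tested genes were called lower. They were the same 6 genes that rose with ATEV against PBS, and both comparisons use the same ATEV libraries. With DNase-treated ATEV, Cd74 was at 0.0242 and 0.149 CPM, against 401 and 483 with untreated ATEV. Its mean was 0.0196% of the untreated level, and over the 4 possible library pairs the value ran from 0.00502% to 0.0373%. H2-Aa, with 1 count in the DNase group, was at 0.0129%, from 0% to 0.0305% over library pairs. For H2-Ab1 and H2-Eb1, at 0 counts, the floor of 3 counts over the group allows at most 0.0278% and 0.0313% of the untreated level, so the 3 chains cannot be ranked.

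With DNase-treated ATEV, H2-DMa and H2-DMb1 were at higher shares of their untreated level than Cd74 and the chains. They also had 7 to 24 counts per library with PBS, where Cd74 and the chains had at most 2. H2-DMa was at 2.02% (0.951% to 3.89% over library pairs) and H2-DMb1 at 0.486% (0.306% to 0.768%). Their CPM with DNase-treated ATEV, 0.765 ± 0.432 for H2-DMa and 0.283 ± 0.0924 for H2-DMb1 (SD, n = 2 each), stood beside PBS means of 0.588 and 0.213. The log2 fold changes of DNase-treated against untreated ATEV were -5.63 ± 0.50 (SE, edgeR adjusted p = 0.00544) for H2-DMa and -7.67 ± 0.46 (edgeR adjusted p = 0.00166) for H2-DMb1. The edgeR adjusted p was 0.000172 for Cd74, 0.00196 for H2-Aa, 0.00717 for H2-Ab1 and 0.00713 for H2-Eb1. Ifi30 with DNase-treated ATEV was at 81.7% of the untreated level (73.2% to 91.9%), with a log2 fold change of -0.29 ± 0.17 and an edgeR adjusted p of 0.596. Per the labels, the DNase group received the same EV dose as the ATEV group.

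**Figure D3:**
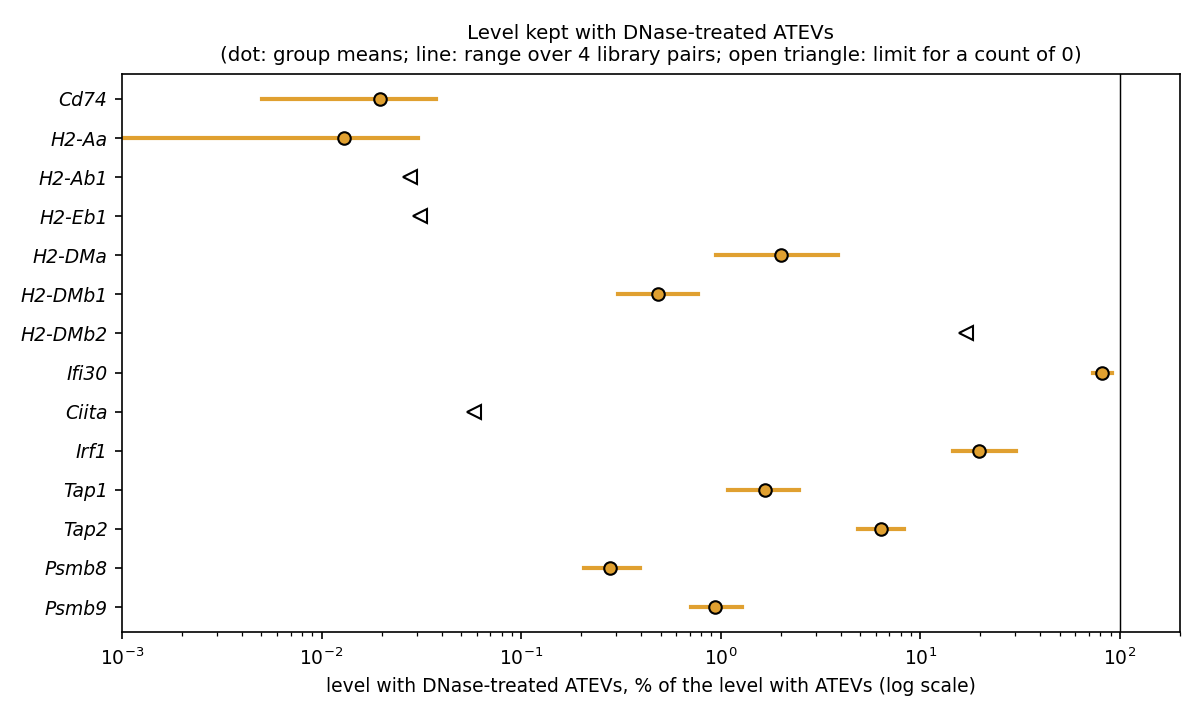
Level with DNase-treated ATEV as a percentage of that with untreated ATEV, on a log axis, for 8 members and 6 related genes, with a dot for the group means, a line for the range over the 4 library pairs (for H2-Aa it runs to 0, off the axis) and an open triangle at the limit that a group with 0 counts allows. H2-DMa is at 2.02%, Cd74 at 0.0196% and Ifi30 at 81.7%.

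The level with ATEV was also set against that with NTEV. There 6 of 9 members were higher with ATEV by edgeR (1.05% of all tested genes were called higher), and Ifi30 was not called, at a log2 fold change of 0.06. Cd74 was 13455 times higher (95% exact counting interval 4604 to 65246), and H2-Ab1, H2-Eb1 and H2-Aa were at least 4034-fold, 3584-fold and 2934-fold higher. H2-DMa differed by 6.50 ± 0.53 on the log2 scale (SE, edgeR adjusted p = 0.00266) and H2-DMb1 by 7.81 ± 0.46 (edgeR adjusted p = 0.000920). NTEV was given at a higher EV dose than ATEV, so the EV source and the dose cannot be told apart.

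Among the PBS, NTEV and DNase-treated ATEV groups no member was called by edgeR. Cd74, H2-Aa, H2-Ab1 and H2-Eb1 passed the filter only through the ATEV libraries and had 0 to 6 counts per library in these groups. They could hardly be called here, so the results below rest on H2-DMa, H2-DMb1 and Ifi30. In NTEV against PBS, 0 of 7 tested members passed edgeR's threshold, where 1.11% of all genes were called. Before adjustment 0 had a p under 0.05, and DESeq2 called 0. H2-DMa stood at a log2 fold change of -0.46, H2-DMb1 at 0.26 and Ifi30 at -0.38 ± 0.17. In DNase-treated ATEV against PBS, 0 of 7 passed edgeR's threshold, where 3.01% of all genes were called. There 1 member, Ifi30, had an unadjusted p under 0.05, as had 3749 of all 15197 tested genes. Its log2 fold change was -0.61 ± 0.17 with an edgeR adjusted p of 0.0981. DESeq2 called it at an adjusted p of 0.0456, beside 1497 of 16405 genes. Both DNase libraries of Ifi30, at 61.8 and 59.3 CPM, were below both PBS libraries, at 80.8 and 104. In DNase-treated ATEV against NTEV, 0 of 7 passed with edgeR (0.0526% of all genes), 0 had a p under 0.05 before adjustment and DESeq2 called 0. Cd74 had 1 and 6 counts with DNase-treated ATEV and 1 and 2 with PBS, a log2 fold change of 1.20 ± 0.90 with an edgeR adjusted p of 0.425. A missed threshold does not show that these groups are alike.

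Of 9 class II regulators, 2 rose with ATEV against PBS, where 3.52% of all tested genes were called higher: Ciita and Irf1. Ciita passed the filter on low counts only through the ATEV libraries, so the share called supports nothing further. None of the 9 fell, their median log2 fold change was -0.02, and that of all tested genes was -0.02. Before adjustment 3 were under 0.05, beside 3326 of all 15197 tested genes, and DESeq2 called 3, beside 1471 of 16405 genes. Ciita, the transactivator that class II transcription depends on, had 1 and 1 counts with PBS, 3942 and 1603 with ATEV, and 0 in all libraries with NTEV and DNase-treated ATEV. The 2 ATEV libraries of Ciita differed by 2.48 times in CPM, and both were above all others. The ratio to PBS was 2679, with a 95% exact counting interval of 741 to 22130 and an edgeR adjusted p of 0.00347. That call was lost without PBS library 1 or without PBS library 2, where the adjusted p reached 0.0687.

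Irf1, an interferon-induced transcription factor, was at 40.9 and 30.3 CPM with PBS and 393 and 192 with ATEV, with a log2 fold change of 3.04 ± 0.36 (edgeR adjusted p = 0.00558). The Irf1 call was lost without PBS library 1 or PBS library 2, up to an adjusted p of 0.0814. The subunits of the RFX complex were not called in the main edgeR fit. Rfx5 had a log2 fold change of 0.84 ± 0.20 (edgeR adjusted p = 0.0621), Rfxank 0.04 and Rfxap -0.09. Rfx5 was called higher by DESeq2, without the filter on low counts, and with a replicate block in which the PBS numbers were crossed. Rfx5 counts were 983 and 475 with PBS and 1407 and 1210 with ATEV, so it was present in all groups.

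With DNase-treated against untreated ATEV, the same 2 regulators were lower, where 0.579% of all tested genes were called lower, and none was higher. Both comparisons use the same ATEV libraries, through which alone Ciita passed the filter. Ciita had 0 counts with DNase-treated ATEV, which allows at most 0.0580% of its untreated level, while Irf1 was at 19.7%. Irf1 had a mean of 57.7 CPM with DNase-treated ATEV, 35.6 with PBS and 292 with ATEV. Its log2 fold change for DNase-treated ATEV against PBS was 0.69 ± 0.34 (SE, edgeR adjusted p = 0.250). The edgeR adjusted p was 0.00923 for Ciita and 0.0412 for Irf1. Some alternatives lost these calls. Ciita lost its call without PBS library 1, PBS library 2 or DNase library 1, up to an adjusted p of 0.0566, with a lower level in DNase-treated ATEV under all 16 alternatives and 0 counts in both of that group's libraries. Irf1 lost its call in 8 of 16 alternatives, at log2 fold changes from -2.77 to -1.76. Against PBS, 0 regulators were called in NTEV by edgeR (before adjustment 0 were under 0.05, and DESeq2 called 0), and 0 in DNase-treated ATEV (before adjustment 2 were under 0.05, and DESeq2 called 0). Over all 15197 tested genes, 2907 were under 0.05 before adjustment with NTEV and 3749 with DNase-treated ATEV.

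**Figure D4:**
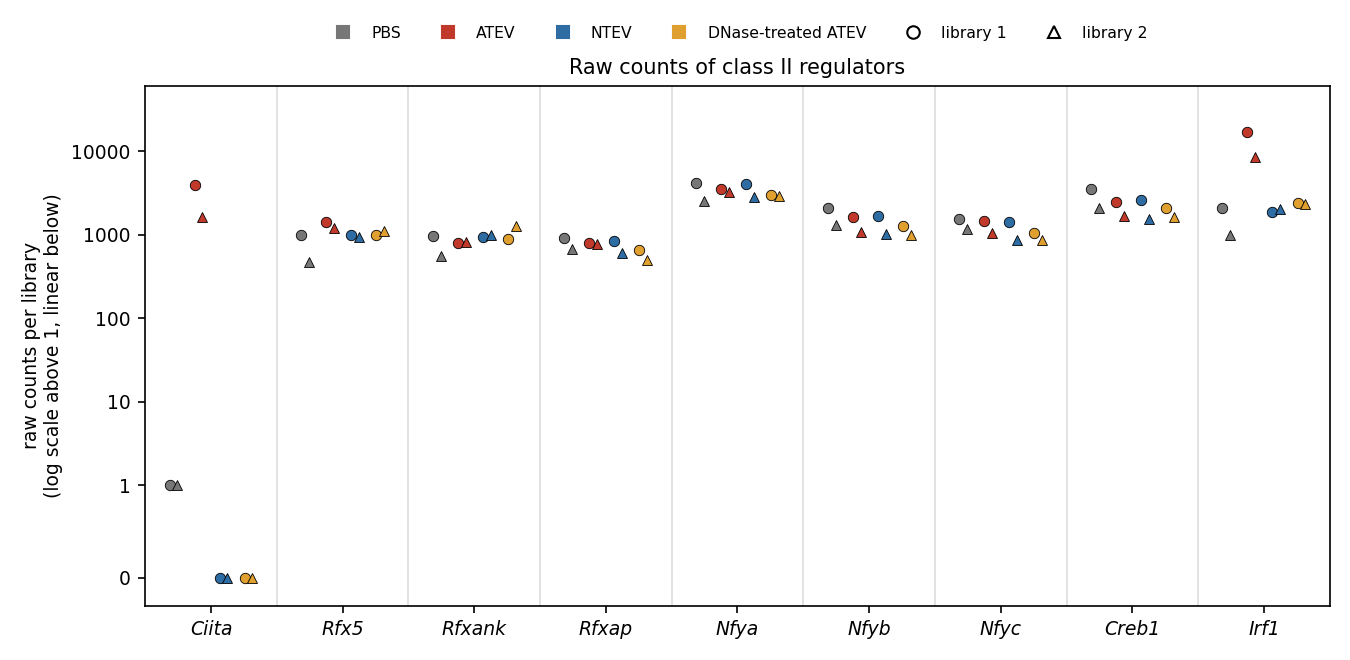
Counts of the 9 class II regulators in each of the 8 libraries, coloured by group, with 1 point per library and a vertical axis that is logarithmic above 1 count and linear below. Ciita runs from at most 1 count outside the ATEV group to 3942 and 1603 with ATEV, and Rfx5 stays between 475 and 1407.

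Few genes that handle antigen in endosomes were called. Of 14 endosomal proteases and inhibitors tested, 0 rose and 1 fell with ATEV against PBS by edgeR (the fall at a background of 1.66% of all genes called lower). Before adjustment 3 were under 0.05, beside 3326 of all 15197 tested genes, and DESeq2 called 2, beside 1471 of 16405 genes. The one that fell was Cstb, cystatin B, an inhibitor of cysteine cathepsins, at a log2 fold change of -0.60 ± 0.13 (SE) with an edgeR adjusted p of 0.0491, and 12 of 16 alternative analyses lost the call. Ctsl, cathepsin L, which processes the invariant chain in thymic epithelium, stood at -0.22 (edgeR adjusted p = 0.342). Lgmn, an asparaginyl endopeptidase, stood at 0.27 (0.410) and Ctse, cathepsin E, at -1.06 (0.0708). Ctse was called lower by DESeq2, without the filter on low counts and under the crossed pairing. Of 13 tested genes of the endosome and of class II turnover, 0 were called by edgeR. Before adjustment 5 were under 0.05 and DESeq2 called 1, with the same counts over all genes as background. Tfeb, a regulator of lysosome genes, had the smallest p among them, at a log2 fold change of 0.79 with an edgeR adjusted p of 0.0554. Tfeb was called higher by DESeq2, without the filter on low counts, with the replicate block and under the crossed pairing.

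Cd74 is also a receptor for the cytokine MIF. Mif itself stood at a log2 fold change of 0.49 (edgeR adjusted p = 0.297), its homologue Ddt at 0.07 (0.926) and the co-receptor Cd44 at -0.18 (0.521). None was called by edgeR in ATEV against PBS (before adjustment 0 were under 0.05, and DESeq2 called 0). Cd74 thus rose without a called change in these partners.

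Genes of other function that lie in the class II region were split. Of 14 tested, 4 rose with ATEV against PBS by edgeR, beside 3.52% of all tested genes. Before adjustment 7 were under 0.05, beside 3326 of all 15197 tested genes. All 4 that rose belong to class I antigen processing: Psmb8 and Psmb9, subunits of the immunoproteasome, and Tap1 and Tap2, which together form the peptide transporter. Psmb8 had 0.0971 and 0.0912 CPM with PBS and 316 and 195 with ATEV, a log2 fold change of 11.35 ± 0.40 (SE). Psmb9, Tap1 and Tap2 changed by 8.72, 8.34 and 4.98 on the log2 scale. The other 10, among them Brd2, Daxx, Ring1 and Rxrb, were not called in that comparison.

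All 4 class I genes were lower with DNase-treated than with untreated ATEV, at 0.279% for Psmb8, 0.938% for Psmb9, 1.66% for Tap1 and 6.39% for Tap2. The mean of Tap2 was 8.40 CPM with DNase-treated ATEV and 4.13 with PBS. Tap2 lost that call without DNase library 1 or DNase library 2. Against PBS, 2 of them were higher with DNase-treated ATEV, where 2.16% of all genes were called higher: Psmb8 by 2.87 ± 0.46 (edgeR adjusted p = 0.0284) and Tap1 by 2.43 ± 0.44 (edgeR adjusted p = 0.0380) on the log2 scale. Each lost the call in 5 of 16 alternative analyses, which include leaving out PBS library 1, PBS library 2, DNase library 1 or DNase library 2. DESeq2 called 4 genes of the list there, Psmb8, Tap1, Psmb9 and Col11a2, beside 1497 of 16405 genes. Psmb9 was also called without the filter on low counts and under the crossed pairing. No class II member was called there by edgeR, and Cd74 and the class II chain genes had at most 6 counts per library in those groups. With DNase-treated ATEV Psmb8 was at 0.653 and 0.772 CPM, against 0.0971 and 0.0912 with PBS. Cd74 was at 0.0242 and 0.149 CPM, against 0.0194 and 0.0608 with PBS. These values are not set per length, and a difference in response between class I and class II genes was not tested.

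**Figure D5:**
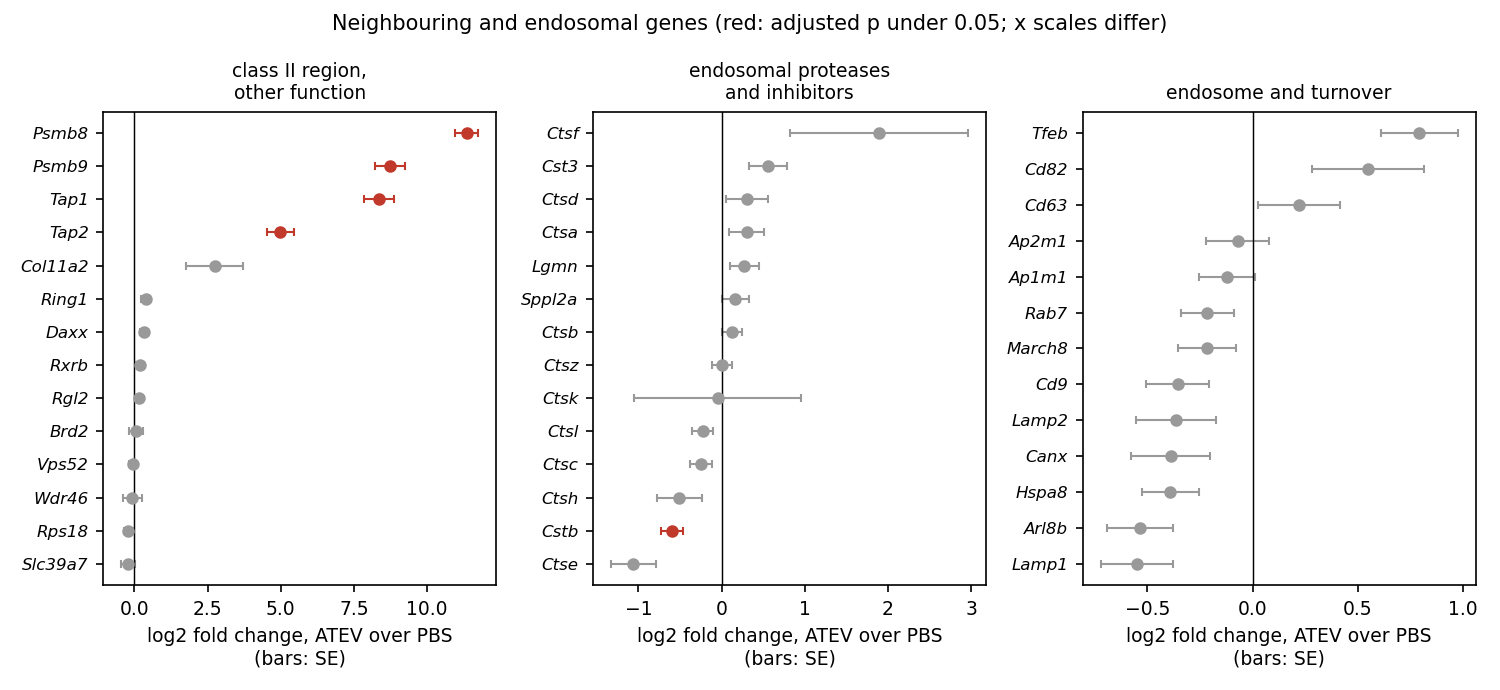
Log2 fold changes of ATEV over PBS, with SE bars, for tested genes of the class II region with other functions, endosomal proteases and inhibitors, and genes of the endosome and turnover, each panel with its own horizontal scale and called genes in red. Psmb8 at 11.35, Psmb9, Tap1 and Tap2 are red on the right of the first panel, Cstb at -0.60 is the red point of the second, and the third has none.

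Among tested genes with a mean log2 CPM of at least 1, which leaves out Ciita, Psmb8 and Psmb9, similarity of pattern was ranked over the 8 libraries. The genes outside the members whose log2 CPM followed the members' mean most closely, of 10650 ranked, were H2-T22 (Pearson r = 0.996), H2-D1 (0.992), Herc6 (0.990), H2-K1 (0.987) and B2m (0.986). H2-D1, H2-K1 and H2-T22 encode MHC class I heavy chains and B2m their shared light chain. Each member was also set against the mean of the others. Cd74, H2-Aa, H2-Ab1, H2-Eb1, H2-DMa and H2-DMb1 had r between 0.993 and 0.999, H2-DMb2 0.968, Ctss 0.732 and Ifi30 0.0178. These values describe 8 libraries in 4 groups in which 1 group is high, and the points share library composition and depth.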

How the data were processed

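The authors deposited whole-number gene counts for 8 libraries, keyed by Ensembl identifiers. Per the labels' protocols, the libraries were TruSeq stranded mRNA. Named in the submitters' processing notes are Cufflinks 2.1.1, TopHat, TopHat2 2.0.11, bcl2fastq 2.19 and build mm9. The counter, its use of strand and the annotation were not given in the sources used here. GENCODE M21 supplied symbols (42250 of 42687), classes and lengths, and RefSeq the promoter windows. Genes were filtered by edgeR's expression filter (minimum count 10), leaving 15197.

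A mean for each of the 4 groups was fitted with edgeR 4.0.16 (R 4.3.3, TMM, quasi-likelihood), with 4 residual degrees of freedom and Benjamini-Hochberg adjustment. All 6 group pairs were compared, two-sided. With 2 against 2 libraries an exact permutation test cannot go below 0.333, so none was run. The floor is 3 counts over the 2 libraries of a group, and 95% intervals are exact. The code was tested on simulated data. Libraries within a group differed by more than sampling noise (chi-square per gene 39.0 to 145).

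Members and lists were chosen with earlier results of these data known. All 9 members, Ciita, the RFX subunits, H2-Oa, H2-Ob, H2-Eb2, Lgmn and Ctsl, up to 4 genes of smallest p per list, and 5 of most similar pattern are named. Other genes named are values of list members. Some genes first placed in the lists are not reported here, and list counts and medians leave them out. The labels give no batch. Alternatives included DESeq2 1.42.0, other scaling and filters, a replicate block and leaving out libraries.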

Additional observations from a re-analysis of the deposited data

How the results depend on the processing

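Over 16 alternatives, Cd74, H2-Aa, H2-Ab1, H2-Eb1, H2-DMa and H2-DMb1 were called every time in the 3 comparisons with ATEV, with the highest edgeR adjusted p, 0.0383, for H2-DMa without DNase library 1. Members called against PBS went from 0 to 1 (Ifi30) with DESeq2 for DNase-treated ATEV, and from 0 to 1 (Ifi30) under the crossed pairing for both NTEV and DNase-treated ATEV. Leaving out certain single libraries turned the sign of some uncalled values, given here with their range over all alternatives. In ATEV against PBS, Rfxank ranged from -0.039 to 0.11, Rfxap from -0.21 to 0.037 and Ddt from -0.34 to 0.44. H2-DMb1 ranged from -0.44 to 0.84 in NTEV against PBS. In DNase-treated ATEV against PBS, H2-DMa ranged from -0.31 to 0.93 and Cd74 from -0.50 to 2.01. Ifi30 ranged from -0.058 to 0.19 in ATEV against NTEV, and H2-DMb1 from -0.42 to 0.84 in DNase-treated ATEV against NTEV. For these the cause was not tested. Where a library was left out, its group's other library was assumed to vary like the other groups.

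Counts of all genes called moved with the analysis. For ATEV against PBS, 788 became 1471 with DESeq2, 1454 without the filter, 454 with the compared groups alone, 370 with protein-coding genes alone and 131 to 562 with a library left out. For NTEV against PBS, 169 became 768 with DESeq2, 773 without the filter, 1 with protein-coding genes and 5 to 125 with a library left out. For DNase-treated ATEV against PBS, 458 became 1497, 1520, 33 and 11 to 382 in the same order. For ATEV against NTEV, 181 became 460 with DESeq2, 459 without the filter, 51 with the compared groups alone and 71 to 166 with a library left out. For DNase-treated against untreated ATEV, 101 became 353, 343, 47 and 27 to 99 in that order. For DNase-treated ATEV against NTEV, 8 became 170, 180, 2 and 1 to 10. The replicate block gave 1182 for ATEV, 330 for NTEV and 1052 for DNase-treated ATEV against PBS, and 24 for DNase-treated ATEV against NTEV. Labels do not pair the numbers: same-numbered libraries deviated together with r of 0.485 to 0.552 among EV groups and -0.180, -0.236 and -0.141 between PBS and EV groups, and the block changed no member's call. Crossing the PBS numbers, chosen after seeing the data, gave 3298, 3567 and 4378 calls against PBS, 607 for ATEV against NTEV, 481 for DNase-treated against untreated ATEV and 152 for DNase-treated ATEV against NTEV. Ifi30 has no value with protein-coding genes alone, because the annotation classes it otherwise, and most members were untested with the compared groups alone where ATEV was not one of them.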
